A study of Mus musculus with 15 samples.

Results

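The 8 genes described here, Smpdl3a, Adgrl3, Prkar1b, Renbp, Gpm6b, Tfpi, Itgbl1 and Nrn1, were chosen because their transcript levels in mouse embryonic fibroblasts had been linked to the nuclear protein CIZ1. All 8 stood on the study's list of transcription units that differed between culture-adapted WT and CIZ1 null cells. Gpm6b was also on its list for primary cells, and Nrn1 was added because its levels moved in opposite directions with culture adaptation in the 2 genotypes. The values in adapted cells therefore chose the members, and they are given as a description with no test. Of 65522 transcription units in the table, 12 carried the name of a member, because Smpdl3a, Renbp, Gpm6b and Nrn1 each had a second, mostly lower unit at the same locus. The unit with the higher mean level stands for the gene below.

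Poly(A)-selected RNA was sequenced from 15 populations of female C57BL/6 fibroblasts. Primary embryonic fibroblasts, taken before passage 5, came from individual embryos, and culture-adapted lines were derived from the same primary populations. Wild-type CIZ1 +/+ cells (WT) were derived from embryos E13.1 and E13.8 and from embryo E14.4, with 3 primary and 3 adapted populations. CIZ1 -/- cells (CIZ1 null) carry a neomycin gene trap downstream of exon 1 of Ciz1 and were derived from embryos E13.15 and E14.2 and from embryo E13.17, again with 3 primary and 3 adapted populations. Embryo E13.17 also carried an inducible CIZ1 transgene, encoding GFP-CIZ1, so its untreated primary population is both 1 of the 3 CIZ1 null primary samples and 1 of the 2 untreated transgenic samples. The other untreated transgenic sample is called S13, and the 2 samples given 5 to 10 µg/ml doxycycline to induce the transgene are called S14 and S15. The study took the induced and untreated transgenic cells from embryos E13.17 and E14.19 and harvested the induced ones a day after adding doxycycline, but the sources used here do not say which of S13, S14 and S15 came from which, so no pairs were formed among them. The adapted line of E13.17 is labelled CIZ1 -/- in its sample record, and the study's list of lines gives it the inducible transgene as well.

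CIZ1 is a zinc finger protein of the nuclear matrix that is recruited by the long noncoding RNA Xist and accumulates at the inactive X chromosome of female cells, where it takes part in keeping repressive chromatin marks in place. Primary fibroblasts have a limited life in culture, and lines that escape senescence and go on dividing carry extensive changes in gene expression. None of the 8 genes encodes a known chromatin regulator. Smpdl3a encodes a secreted phosphodiesterase of the acid sphingomyelinase family, and Renbp the renin-binding protein, an epimerase of N-acetylglucosamine. Adgrl3 (latrophilin 3) is an adhesion G protein-coupled receptor that binds teneurins and FLRT proteins, Prkar1b is a regulatory subunit of protein kinase A, and Gpm6b is a membrane glycoprotein of neurons and other cells. Tfpi is a secreted Kunitz-type inhibitor of the tissue factor pathway of coagulation, Itgbl1 is a secreted protein with EGF-like repeats related to the integrin beta chains, and Nrn1 (neuritin) is a GPI-anchored protein known for promoting neurite growth.

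In GRCm38 and its GENCODE annotation all 8 are protein-coding genes, and they lie on 5 autosomes or on the X chromosome. Tfpi is at chr2:84432855-84476775 on the minus strand, Adgrl3 at chr5:81020138-81825133 on the plus strand and Prkar1b at chr5:139017306-139150001 on the minus strand. Smpdl3a is at chr10:57794335-57811830 on the plus strand, Nrn1 at chr13:36725361-36735131 on the minus strand and Itgbl1 at chr14:123659971-123975618 on the plus strand. Renbp, at chrX:73922121-73930850 on the minus strand, and Gpm6b, at chrX:166238911-166388988 on the plus strand, are the X-linked members. The unit of Prkar1b is listed jointly with Gm15672, whose reads cannot be separated from it. Units of Dnaaf5, at the locus of Prkar1b, and of Fgf14, at that of Itgbl1, had means of at least 1 FPKM. Reads shared with them cannot be told apart either.

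RefSeq promoter windows of the same assembly (GRCm38.p6) held 6 of the 8 genes. Bases upstream of the annotated gene are shown for the X-linked pair and for Tfpi and Itgbl1, the members with the widest range of levels across samples. The letters of a TATA box (TATAAA), those of a CCAAT box, a GC box (GGGCGG), a full cAMP response element (TGACGTCA) and an E-box (CACGTG) were searched on both strands, without overlaps between matches in these 4 stretches, and capitals mark each match. The motifs were picked after the sequences had been seen.
Gpm6b, chrX:166238693-166238910, plus strand: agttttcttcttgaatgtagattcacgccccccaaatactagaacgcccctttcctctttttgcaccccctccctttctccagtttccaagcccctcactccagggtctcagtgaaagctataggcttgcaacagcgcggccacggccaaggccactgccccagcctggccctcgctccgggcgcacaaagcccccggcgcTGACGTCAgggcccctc
Renbp, chrX:73930851-73931100, minus strand: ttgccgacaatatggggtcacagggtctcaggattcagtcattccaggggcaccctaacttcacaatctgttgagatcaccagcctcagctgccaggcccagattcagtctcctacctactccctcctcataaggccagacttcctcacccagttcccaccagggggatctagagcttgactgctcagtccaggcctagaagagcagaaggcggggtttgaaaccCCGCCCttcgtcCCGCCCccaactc
Tfpi, chr2:84476776-84477009, minus strand: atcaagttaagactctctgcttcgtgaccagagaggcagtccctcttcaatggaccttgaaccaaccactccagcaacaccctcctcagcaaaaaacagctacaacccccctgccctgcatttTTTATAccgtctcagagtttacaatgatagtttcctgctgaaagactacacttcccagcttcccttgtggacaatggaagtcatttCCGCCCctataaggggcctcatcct
Itgbl1, chr14:123659890-123659970, plus strand: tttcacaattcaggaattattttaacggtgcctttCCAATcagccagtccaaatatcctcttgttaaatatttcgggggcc
The stretch of Gpm6b held TGACGTCA, which was present in 1.51% of 32817 promoter windows of its 218 bases. That of Renbp held GGGCGG in reverse 2 times, against 32.7% of windows of 250 bases with any match. That of Tfpi held TATAAA and GGGCGG, both in reverse, which were found in 11.6% and 32.2% of windows of 234 bases, and the 81 bases of Itgbl1 held CCAAT, found in 15.5%. These shares are for the bases next to the RefSeq start. The stretches of Gpm6b, Tfpi and Itgbl1 end before that start, at the annotated gene, so they reach further upstream than the bases behind the shares. No motif was shared by all 4 stretches. CpG dinucleotides were at 0.61 of the number expected from base composition in Gpm6b and at 0.66 in Itgbl1, but at 0.26 in Renbp and 0.24 in Tfpi, beside a median of 0.37 over all windows of 250 bases.

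Levels are FPKM (fragments per kilobase of transcript, scaled to the number of mapped fragments) and differences are of log2(FPKM + 1), second group minus first, with the standard error from limma. This scale understates the change of genes below about 1 FPKM. Depth is known only in relative terms, from the size of the smallest steps in the low values. It ran from 0.476 of that of primary E14.4 in S13, the shallowest sample, to 1.61 in primary E13.1. Ciz1 itself was at 18.68 to 24.96 FPKM in the 6 WT samples and at 0.0546 to 0.724 FPKM in the 7 CIZ1 null samples without doxycycline. It was at 296 FPKM in S14 and 191 FPKM in S15, several times the WT level. The 10 fibroblast markers were detected in every group. Their sum was 10020 to 10950 FPKM in the 6 primary WT and CIZ1 null samples, 6341 to 7937 FPKM after doxycycline and 3103 to 6508 FPKM in the adapted lines. The sum rests on the most abundant markers, and not all 10 fell on adaptation. Mean Dcn went from 29.75 to 317.5 FPKM in WT cells and from 55.77 to 616.7 FPKM in CIZ1 null cells. Mean Pdgfra was also higher after adaptation in both genotypes, and neither gene was called.

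**Figure D1:**
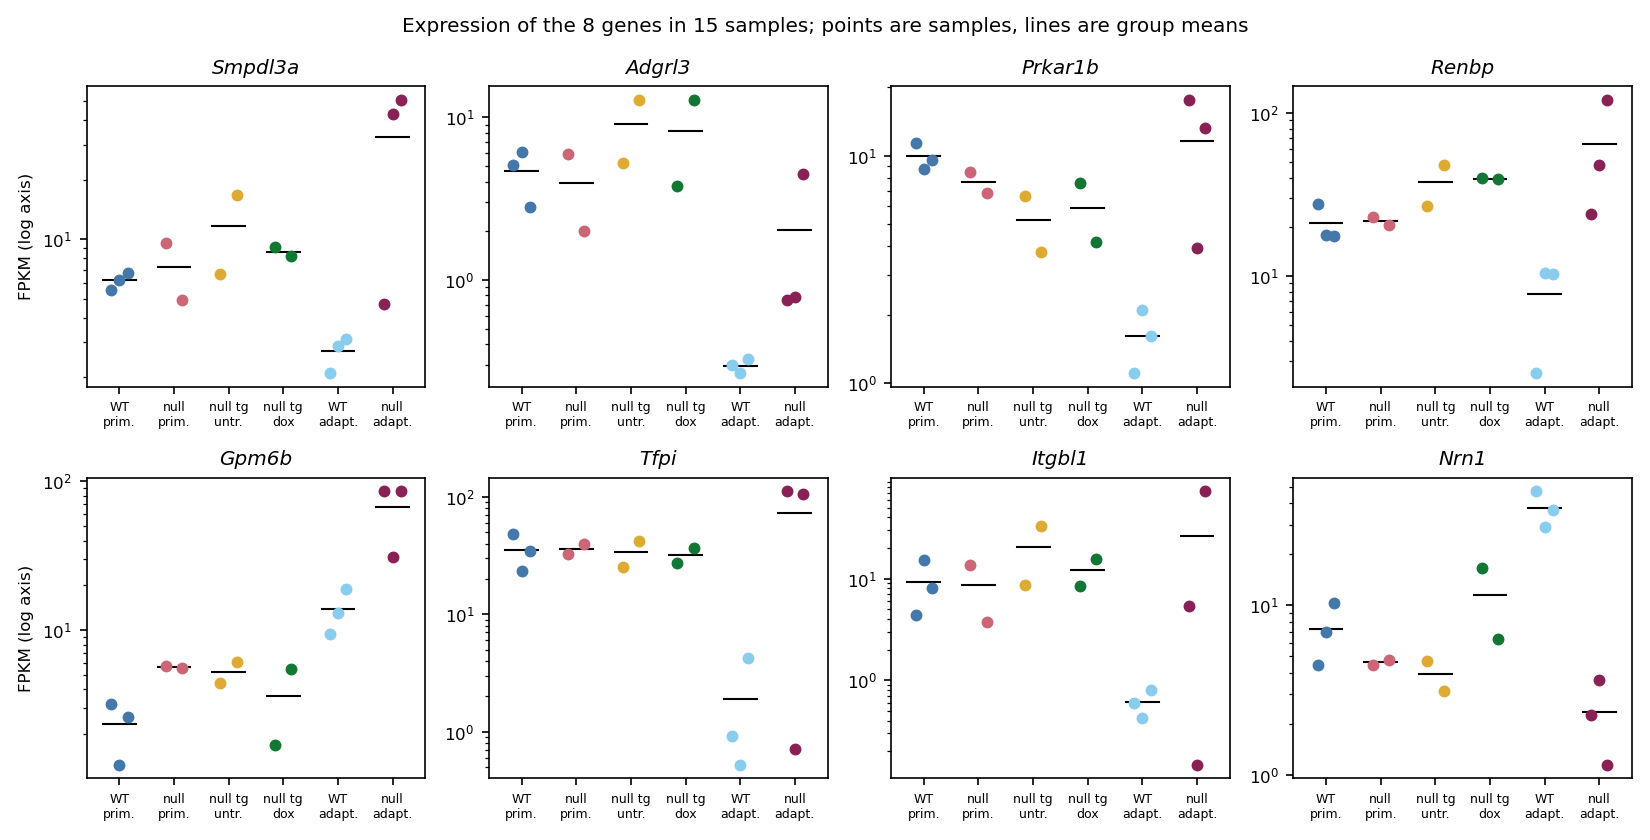
FPKM (log axis) of the 8 genes in all 15 samples, with points for samples and lines for group means. The primary groups lie close to each other for most genes, the mean of the WT adapted samples is the lowest for 6 genes, the highest for Nrn1 and the second highest for Gpm6b, and single samples stand apart within the CIZ1 null adapted and untreated transgenic groups (null tg untr.; E13.17 is drawn there and not with null prim.).

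In primary cells, none of the 6 members that could be tested passed the test between WT and CIZ1 null populations. Over all units this comparison called 1 of 19566 (0.00511%), which was Ciz1 itself, at a log2 difference of -4.20 ± 0.15 (adjusted p = 0.000394, limma with Benjamini-Hochberg adjustment). At an unadjusted p under 0.05 there were 1225 units, among them 1 of the 6 members, Prkar1b. Group values did not overlap for 2 of the 8 members, Prkar1b and Gpm6b, and for 11.9% of all units. The median log2 difference was -0.09 over the 8 members and 0.00 over all units. With its own test, Cuffdiff, the study listed many more units for CIZ1 loss in primary cells, and also more in adapted cells. The small number called here therefore does not show that few units changed.

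Prkar1b was at 8.74, 9.61 and 11.4 FPKM in primary WT cells and at 6.68, 6.86 and 8.44 FPKM in primary CIZ1 null cells. Every CIZ1 null value was below the lowest WT value. The log2 difference was -0.39 ± 0.15 (n = 3 per group, unadjusted p = 0.0379, adjusted p = 0.776), with a 95% interval of -0.75 to -0.03. For the other 5 the groups overlapped and the intervals included 0. The 2 with the narrowest intervals were Renbp, at 0.17 ± 0.20 with an interval of -0.31 to 0.65, and Smpdl3a, at 0.13 ± 0.22 with an interval of -0.40 to 0.65. Tfpi differed by -0.08 ± 0.28 with an interval of -0.74 to 0.57, and Adgrl3 by -0.12 ± 0.38 with one of -1.01 to 0.77. Itgbl1, which spanned 4.42 to 15.3 FPKM among the primary WT populations alone, had the widest interval, -1.30 to 1.11 around -0.09 ± 0.51.

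The 2 members whose primary values had a part in their choice are described only. Gpm6b was at 1.25, 2.59 and 3.21 FPKM in primary WT cells and at 4.40, 5.54 and 5.73 FPKM in primary CIZ1 null cells, a log2 difference of 0.93 ± 0.25 with no overlap. Its second unit, whose level was a median of 0.534 times that of the main unit over the 15 samples, differed by 0.38 ± 0.20 and did overlap. Summed over 5 glial and Schwann cell genes, the level was 0.493 to 2.58 FPKM in primary WT cells, 6.91 FPKM in CIZ1 null E13.15, where Sox10 alone was at 4.93 FPKM, 2.23 FPKM in E14.2 and 0.901 FPKM in E13.17. In the same 3 CIZ1 null populations, E13.15, E14.2 and E13.17, Gpm6b was at 5.54, 5.73 and 4.40 FPKM. The part of glial cells in these values was not tested. Nrn1 was at 4.43, 6.97 and 10.4 FPKM in WT cells, which spread widely, and at 4.46, 4.67 and 4.75 FPKM in CIZ1 null cells, which hardly spread at all. Its log2 difference was -0.49 ± 0.26.

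After adaptation of WT cells to culture all 8 genes lay outside their primary range, 6 below it and 2 above. The 3 adapted values lay outside the 3 primary values for 8 of 8 members and for 38.7% of 19919 units. Since the adapted WT samples also entered the choice of members, these values are not independent of it. The median over the members was -1.78 on the log2 scale and that of all units was -0.05. Tfpi went from 48.1, 23.5 and 34.7 FPKM in primary E14.4, E13.1 and E13.8 to 4.21, 0.912 and 0.523 FPKM in the lines derived from them, a log2 difference of -3.82 ± 0.50. Itgbl1 was at 0.422 to 0.801 FPKM in the adapted lines, against 4.42 to 15.3 FPKM before (-2.54 ± 0.40). Adgrl3 was at 0.266 to 0.324 FPKM, against 2.80 to 6.12 FPKM (-2.08 ± 0.28).

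The remaining members followed the same 2 directions. Prkar1b was at 1.11 to 2.10 FPKM in adapted WT cells, a log2 difference from primary cells of -2.08 ± 0.21. Renbp was at 10.3, 2.53 and 10.5 FPKM in adapted E14.4, E13.1 and E13.8 (-1.49 ± 0.49), so that 1 line stood well below the others. Smpdl3a showed the smallest difference, from 5.56 to 6.75 FPKM in primary cells to 2.10 to 3.13 FPKM in adapted ones (-0.96 ± 0.19). Gpm6b and Nrn1 went the other way. Gpm6b was at 9.396, 13.005 and 19.01 FPKM in adapted WT cells (2.14 ± 0.34), and Nrn1 at 28.8, 36.8 and 47.2 FPKM (2.26 ± 0.32), the highest levels of Nrn1 in any of the 15 samples.

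In CIZ1 null cells the same passage to adapted lines left the 8 genes less uniform. Of the 8, Gpm6b and Nrn1 had adapted values wholly outside the primary ones, 2 of 8 members beside 37.1% of 20044 units. That count was 4 without adapted E13.15 or without adapted E13.17, and 1 when S13 joined the primary samples. Fewer samples make non-overlap easier for any unit and more samples make it harder. The share over all units is not given for these sets, so nothing is read from the change in count. Gpm6b was at 86.0 and 85.7 FPKM in adapted E13.15 and E14.2 and at 30.9 FPKM in adapted E13.17 (3.33 ± 0.41 from primary CIZ1 null cells). Nrn1 was at 2.26, 1.15 and 3.63 FPKM in the same order (-0.82 ± 0.30), below the 3 primary CIZ1 null values but not all below untreated S13, at 3.14 FPKM. Its second unit, at a median of 0.684 times the main unit's level, was at -0.34 ± 0.29 and overlapped.

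For the other 6 genes the 3 CIZ1 null embryos did not all behave alike. Tfpi went from 39.5 to 112 FPKM in E13.15 and from 32.6 to 105.5 FPKM in E14.2, but from 25.4 to 0.705 FPKM in E13.17. Itgbl1 went from 3.75 to 5.41 FPKM in E13.15 and from 13.5 to 72.5 FPKM in E14.2, but from 8.57 to 0.147 FPKM in E13.17, its lowest value anywhere. Prkar1b went from 6.86 to 17.6 FPKM in E13.15 and from 8.44 to 13.3 FPKM in E14.2, but from 6.68 to 3.95 FPKM in E13.17. Adapted E13.17 was thus close to the WT lines for Tfpi and Itgbl1, and between the 2 genotypes for Prkar1b. Smpdl3a split differently. It went from 6.63 to 42.8 FPKM in E13.17 and from 9.57 to 50.7 FPKM in E14.2, but only from 4.91 to 4.70 FPKM in E13.15. Adgrl3 was lower after adaptation in all 3 embryos, at 0.753 FPKM in E13.15, 0.785 FPKM in E13.17 and 4.51 FPKM in E14.2, and Renbp was higher in all 3, at 23.9, 48.3 and 120.8 FPKM.

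**Figure D2:**
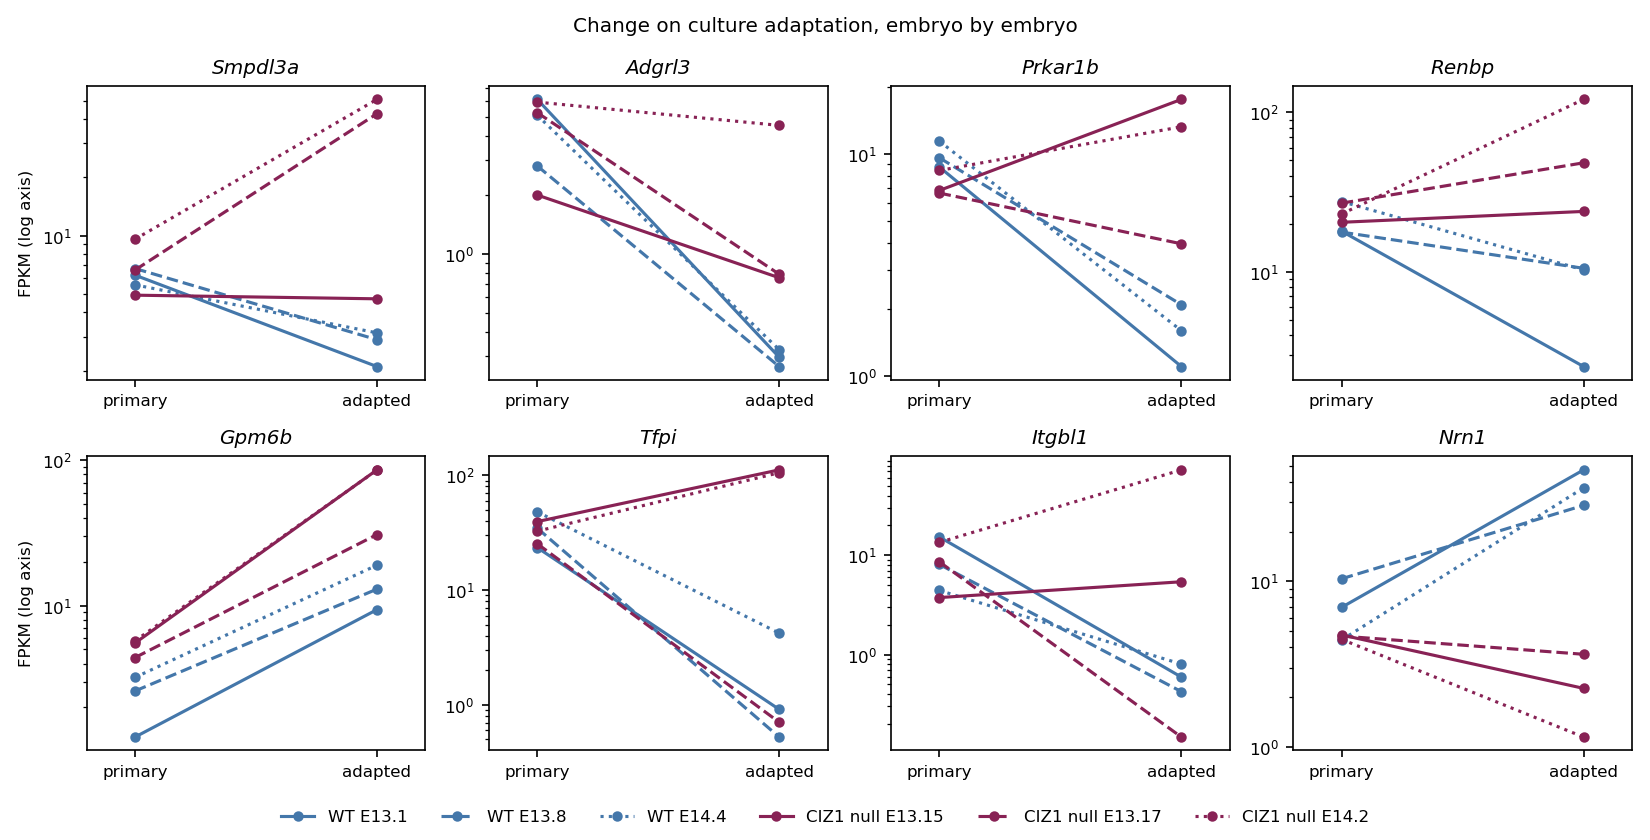
FPKM (log axis) of each gene in the primary population and in the adapted line of the same embryo, with blue lines for WT and purple lines for CIZ1 null embryos. Blue lines fall for 6 genes and climb for Gpm6b and Nrn1. The dashed purple line, E13.17, runs with the WT embryos for Tfpi and Itgbl1.

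Embryo by embryo, all 3 WT pairs went one way and all 3 CIZ1 null pairs the other for Nrn1 and Renbp. Renbp hardly moved in CIZ1 null E13.15, from 20.4 to 23.9 FPKM, and Nrn1 little in CIZ1 null E13.17, from 4.67 to 3.63 FPKM. The mean log2 change was 2.26 in WT and -0.82 in CIZ1 null embryos for Nrn1, and -1.49 and 1.13 for Renbp. This pattern held for 2 of 8 members beside 1.44% of 19153 units that passed the filter in both genotypes. Nrn1 was picked for it, and Renbp for its level in adapted cells, so the difference was not tested. For Gpm6b all 6 pairs went up, by 1.96 to 2.25 in WT and by 2.56 to 3.73 in CIZ1 null embryos on the log2 scale, and for Adgrl3 all 6 went down.

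These paths ended in the differences between adapted WT and adapted CIZ1 null cells that had led to the choice of the genes. Group values did not overlap for 6 of the 8, beside 8.28% of 19976 units, and nothing is read from that count. The log2 differences were 2.78 ± 0.70 for Renbp, 2.67 ± 0.82 for Smpdl3a, 2.12 ± 0.47 for Gpm6b, 2.09 ± 0.51 for Prkar1b, 0.996 ± 0.50 for Adgrl3 and -3.57 ± 0.35 for Nrn1. Those of Tfpi, 3.47 ± 1.63, and Itgbl1, 2.35 ± 1.37, came with overlap and with the largest standard errors. Both overlaps came from the single line E13.17. Without it the difference was 5.47 for Tfpi and 3.76 for Itgbl1. Without E14.2 it was 2.48 for Tfpi and 0.763 for Itgbl1, and without E13.15 it was 2.44 for Tfpi and 2.52 for Itgbl1. The members differed in how they arrived there. For Tfpi, Prkar1b, Smpdl3a and Renbp the WT lines lay below the range of the primary WT cells. The median CIZ1 null line, at 105.5, 13.3, 42.8 and 48.3 FPKM in that order, lay above the range of primary E13.15, E14.2 and E13.17. For Itgbl1 that median, 5.41 FPKM, was inside this range, and for Adgrl3, at 0.785 FPKM, below it. The median of Renbp was not above primary CIZ1 null S13, which was also at 48.3 FPKM. Gpm6b was above the primary range in both genotypes, further in the CIZ1 null lines.

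Inducing GFP-CIZ1, which took Ciz1 to several times the WT level, asks whether these levels follow it within primary cells. No sample without the transgene was given doxycycline, so effects of the drug and of the transgene cannot be told apart. Primary E13.17, 1 of the 2 untreated samples, had entered the choice of Gpm6b and Nrn1, which are described only. None of the other 6 members was called after doxycycline. Over all units 2 of 19768 (0.0101%) were called, namely Ciz1, at 7.49 ± 0.35 on the log2 scale (adjusted p = 0.0102, limma with Benjamini-Hochberg adjustment), and the ribosomal pseudogene Rpl34-ps2, and 347 had an unadjusted p under 0.05. With 2 samples a group the test has little reach, and the untreated sample E13.17 is shared with the comparison of primary genotypes. The median log2 difference was -0.12 over the members and -0.01 over all units. The values of the 2 groups did not overlap for 1 member, Nrn1, beside 19.7% of all units.

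Nrn1 was at 4.67 and 3.14 FPKM in untreated E13.17 and S13 and at 16.7 and 6.28 FPKM in S14 and S15. Both treated values were above both untreated ones, and S14 was above the primary WT range of 4.43 to 10.4 FPKM. The log2 difference was 1.23 ± 0.49. It was 0.59 without S14 and 1.86 without S15. The second unit gave 0.95 ± 0.50.

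For the other 7 members the treated and untreated values overlapped, and for the 6 tested the 95% intervals included 0. Gpm6b, the member with higher values in primary CIZ1 null cells, was at 4.40 and 6.11 FPKM untreated, and at 1.70 FPKM in S14 but 5.53 FPKM in S15. The first of these treated values lay inside the primary WT range of 1.25 to 3.21 FPKM and the other did not (-0.56 ± 0.49). Prkar1b, with lower values in primary CIZ1 null cells, was at 6.68 and 3.78 FPKM untreated and at 7.58 and 4.19 FPKM treated, all below the lowest primary WT value of 8.74 FPKM (0.14 ± 0.41, interval -0.87 to 1.15). Tfpi stayed inside the primary WT range of 23.5 to 48.1 FPKM in all 4 samples (-0.04 ± 0.36, interval -0.93 to 0.85). The intervals of Smpdl3a, -1.40 to 0.85, and Renbp, -0.76 to 1.02, were of similar width. Adgrl3, from -1.76 to 1.36, and Itgbl1, from -2.11 to 1.08, were the least well determined.

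The 2 untreated samples differed from each other for several members. Tfpi was at 41.9 FPKM in S13 and 25.4 FPKM in E13.17. Prkar1b was at 3.78 FPKM in S13, its lowest primary value, and 6.68 FPKM in E13.17. S13 was also the higher for Gpm6b, at 6.11 FPKM, its highest primary value, against 4.40 FPKM in E13.17, and for 4 other members. S13 was at 12.8 FPKM for Adgrl3, 32.6 FPKM for Itgbl1, 48.3 FPKM for Renbp and 16.8 FPKM for Smpdl3a, the highest primary value of each, though treated S15 was close to it for Adgrl3, at 12.7 FPKM. Untreated E13.17 was at 5.23, 8.57, 26.9 and 6.63 FPKM for the same genes, and only S13 of the 2 lay above the primary WT range. Treated S15 lay above that range for the same 4 genes, and S14 for Renbp and Smpdl3a. S13 was also the shallowest sample, and the part of its depth in these values was not tested. Without S13, the sign of the difference turned for Smpdl3a, Adgrl3, Prkar1b, Tfpi and Itgbl1, to values between -0.20 and 0.39, all with adjusted p = 1.0.

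**Figure D3:**
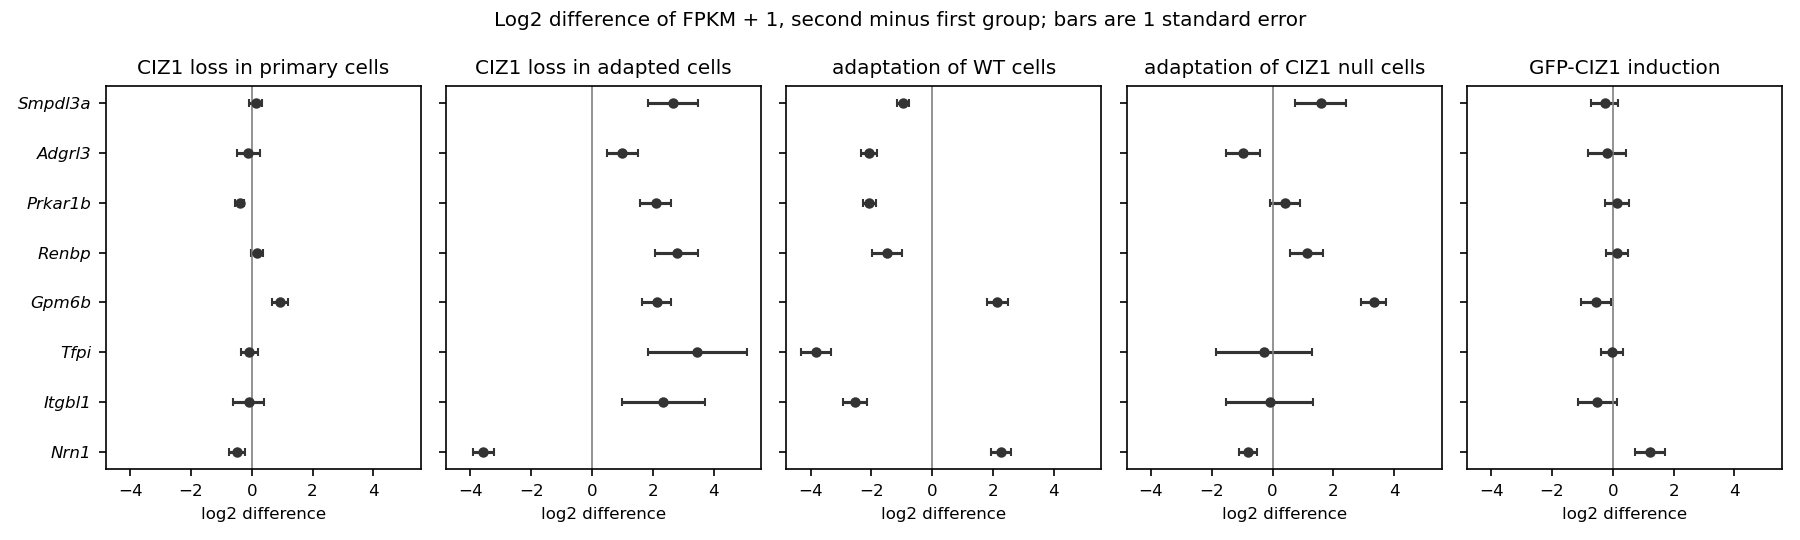
Differences of log2(FPKM + 1), second group minus first, for the 8 genes in 5 comparisons, with bars of 1 standard error. The first and last panels (CIZ1 loss in primary cells and GFP-CIZ1 induction, of -0.56 to 1.23) hold no difference larger than 1.23, and the widest bars are those of Tfpi and Itgbl1 in the panels with adapted CIZ1 null cells.

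Macrophages express lysosomal enzymes strongly, and their markers varied between the cultures. The summed level of 6 macrophage markers was 16.03 to 30.96 FPKM in primary WT cells. Among primary CIZ1 null populations it was 8.80 FPKM in E13.15, 66.0 FPKM in E14.2 and 91.4 FPKM in E13.17. It was 67.8 FPKM in S13, and 60.8 and 78.6 FPKM in S14 and S15. It was 2.15 to 8.77 FPKM in adapted WT lines and 3.803 to 15.07 FPKM in adapted CIZ1 null lines. Of the 6 markers, Lyz2 alone had a mean of 14.85 FPKM in primary WT and 42.72 FPKM in primary CIZ1 null cells. In bulk RNA fewer such cells and less RNA per cell cannot be told apart. Within the primary cultures, Smpdl3a was lowest in E13.15, where the sum was lowest. In E14.2, S13, S14 and S15, whose sums were above those of primary WT cells, Smpdl3a was at 9.57, 16.8, 9.12 and 8.18 FPKM. All of these were above its primary WT range. E13.17, with the highest sum, had Smpdl3a at 6.63 FPKM, inside that range, and S13, with the highest primary Smpdl3a, had a lower sum than E13.17. Renbp was at 20.4, 23.0 and 26.9 FPKM in primary E13.15, E14.2 and E13.17, all inside its primary WT range of 17.7 to 27.5 FPKM. In S13, S14 and S15 Renbp was above that range, at 48.3, 39.9 and 39.2 FPKM. In the adapted CIZ1 null lines, where Smpdl3a and Renbp reached their highest levels, the sum was below that of every primary WT population. The part of macrophages in the primary values was not tested. Among markers of the remaining cell types, the 5 endothelial genes summed to at most 2.89 FPKM in any group. The 4 neuronal genes found in the table summed to 0.566 to 23.8 FPKM in adapted WT lines and 0.0182 to 0.310 FPKM in adapted CIZ1 null lines, which is the direction of Nrn1, but 3 of the 4 were under 0.1 FPKM in all adapted WT lines. The 4 epithelial genes reached 11.6 FPKM in 1 primary CIZ1 null population and at most 3.30 FPKM elsewhere.

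**Figure D4:**
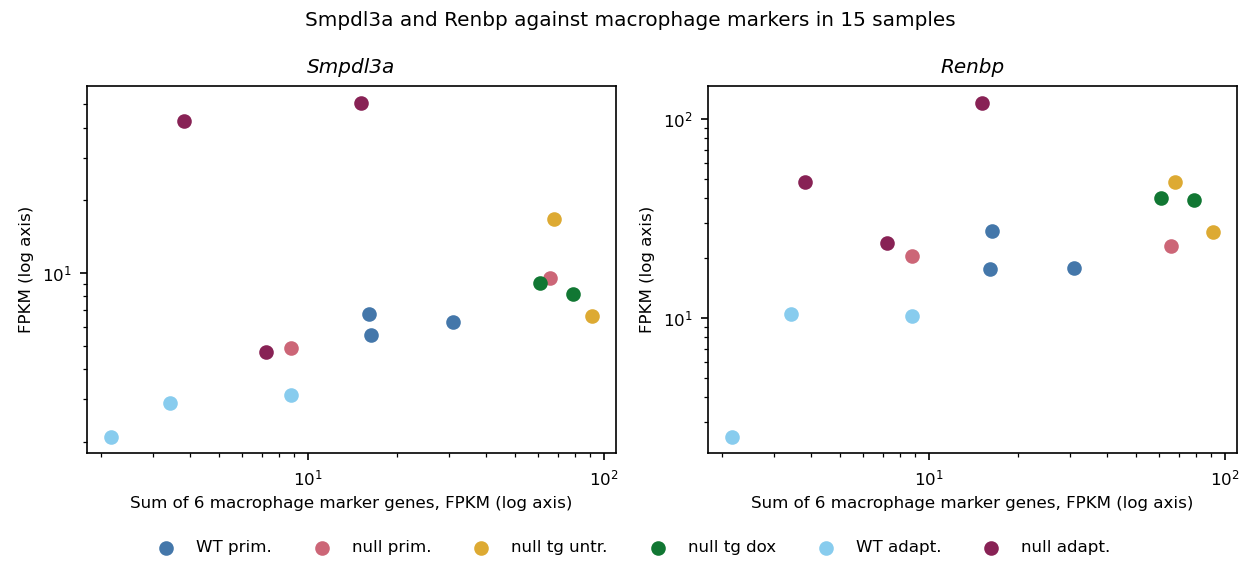
FPKM of Smpdl3a (left) and Renbp (right) against the summed FPKM of 6 macrophage markers in 15 samples, both axes logarithmic, coloured by group. The CIZ1 null adapted lines (3.803 to 15.07 FPKM on the horizontal axis) hold the highest level of both genes at low marker sums, and the doxycycline and untreated transgenic samples sit at the right.

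Relatives and partners of the 8 proteins were followed in the same way, 48 genes in 8 families, of which 34 or 35 passed the filter in each comparison. None was called for CIZ1 loss in primary cells, and 2 of 35 had an unadjusted p under 0.05. None was called for CIZ1 loss in adapted cells (1 of 19976 units, 0.00501%, was called there, again Ciz1), with 2 of 34 under 0.05, and none for induction, with 1 of 35. Adaptation called 7 of 34 in WT cells, 6 lower and 1 higher, beside 9.55% of all units, and 2 of 35 in CIZ1 null cells, both lower, beside 4.86% of all units. With embryo as a replicate block, 2 relatives were called in WT cells, Tfpi2 and Itgb3, and none in CIZ1 null cells, so that the other calls named below are lost in that fit, at adjusted p from 0.0526 to 0.0975. No relative was called in WT cells without any 1 of the 3 primary samples, 4 were without adapted E13.1 or E13.8, and 10 without adapted E14.4. Over all units the calls in WT cells changed as well. They were 62 to 70 without a primary sample, 1808 without adapted E13.1, 1296 without adapted E13.8 and 2972 without adapted E14.4. In CIZ1 null cells none was called without any 1 of the 3 primary samples or without adapted E14.2, and 5 were without adapted E13.15.

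Among the adhesion partners of Adgrl3, Flrt2 fell on adaptation of WT cells from a mean of 28.7 to 4.64 FPKM (log2 difference -2.67 ± 0.60, adjusted p = 0.0443 with limma, and 0.0526 with the block). The teneurin Tenm3 fell from 3.29 to 0.460 FPKM (-1.64 ± 0.36, adjusted p = 0.0411). Tenm3 also fell in CIZ1 null cells, from 4.47 to 0.142 FPKM (-2.23 ± 0.25, adjusted p = 0.0209, and 0.0721 with the block), so that this ligand was low in adapted cells of both genotypes. The sister receptors Adgrl1 and Adgrl2 were not called in any comparison, at 11.7 and 23.0 FPKM in adapted WT cells and 12.96 and 25.15 FPKM in adapted CIZ1 null cells. In the tissue factor pathway Tfpi2, the closest relative of Tfpi, fell in both genotypes. It went from 9.13 to 0.157 FPKM in WT cells (-2.94 ± 0.47, adjusted p = 0.0212) and from 9.39 to 0.952 FPKM in CIZ1 null cells (-2.60 ± 0.45, adjusted p = 0.0355, and 0.0946 with the block). Tissue factor itself, F3, was not called, at 115.0 FPKM in adapted WT and 249.1 FPKM in adapted CIZ1 null cells (0.91 ± 0.63).

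The integrin beta chains, to which Itgbl1 is related, gave 3 calls on adaptation of WT cells. Itgb3 fell from 14.5 to 1.46 FPKM (-2.76 ± 0.35, adjusted p = 0.0138) and Itgb1, the most abundant, from 678.5 to 390.6 FPKM (-0.79 ± 0.17, adjusted p = 0.0424). Itgb7 rose from 3.73 to 6.62 FPKM (0.69 ± 0.16, adjusted p = 0.0444). In the aminosugar and sialic acid pathway, where Renbp acts, Nans, the sialic acid synthase, fell from 76.7 to 38.5 FPKM (-1.004 ± 0.22, adjusted p = 0.0403), the single call among 10 tested genes of that pathway. Of the protein kinase A subunits followed as relatives of Prkar1b, none was called in any comparison. Prkar1a, the close relative of Prkar1b, was at 101.2 FPKM in adapted WT and 115.2 FPKM in adapted CIZ1 null cells. No relative of Smpdl3a in the sphingomyelinase family was called either. Smpd1, the acid sphingomyelinase, was at 28.2 and 27.6 FPKM, and Smpdl3b, the nearest relative of Smpdl3a, at 3.32 and 0.514 FPKM (-1.45 ± 0.39, adjusted p = 0.998), which is the sign opposite to that of Smpdl3a. Nrn1l, the one relative of Nrn1, was at 14.9 FPKM in adapted WT and 15.04 FPKM in adapted CIZ1 null cells. Gpm6a, a relative of Gpm6b, was under the filter of 1 FPKM in all comparisons.

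Across the 15 samples the members did not form a single pattern. On the log2 scale the pairs most alike were Smpdl3a and Renbp (Pearson r = 0.86), Tfpi and Prkar1b (r = 0.83), Adgrl3 and Itgbl1 (r = 0.82) and Tfpi and Itgbl1 (r = 0.82), while Prkar1b and Itgbl1 were less so (r = 0.59). Nrn1 ran against the other 7, with r from -0.28 for Gpm6b to -0.81 for Renbp. These are descriptions over 15 samples that include replicate populations and the adapted samples used in choosing the genes. Leaving out a member's own second unit, the unit most like each member was Neu1, a lysosomal sialidase, for Smpdl3a (r = 0.94), Rcn1 for Adgrl3 (0.94), Ifngr2 for Prkar1b (0.89) and Chmp5 for Renbp (0.89). It was Ipmk for Gpm6b (0.95), Rpl39l for Tfpi (0.97), Igf2r for Itgbl1 (0.93) and Pdcd7 for Nrn1 (0.94). Next in order came Cnppd1 and Slc7a10 for Smpdl3a, Glrx3 and Gm16054 for Adgrl3, and Rpl39l and a second unit of Ifngr2 for Prkar1b. For Renbp they were Fam129a and Klhl22, for Gpm6b Mark1 and Pura, and for Tfpi Wbscr17 and Pip4k2a. For Itgbl1 they were the joint unit of Aldh1l1 and RP24-457L7.3 and a second unit of Igf2r, and for Nrn1 Gm22551 and Xkr5. Gm16054 lies at the locus of Adgrl3, and reads shared between them cannot be told apart.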

How the data were processed

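RNA from 15 fibroblast populations was converted to libraries with a kit for which no strand marking is stated, so that a gene and units overlapping it cannot be told apart. The authors trimmed reads with cutadapt 1.8.3, aligned them to GRCm38 with HISAT2 2.0.5, assembled transcription units with Cufflinks and deposited normalised FPKM from Cuffnorm. A table of the authors' own comparisons from Cuffdiff 2.2.1, with fold changes, p-values and q-values, was not used. Sample labels gave the groups, and the embryo of 12 samples came from the identity of 1991 values with those that the study lists per line.

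Here log2(FPKM + 1) was fitted with limma 3.58.1 in R 4.3.3 (lmFit and eBayes with a trend), on the samples of each comparison alone, over units with a mean of at least 1 FPKM in them. The p-values were adjusted by Benjamini-Hochberg over all those units, with a threshold of 0.05. The fits were tested on simulated data. The primary and adapted samples were paired by embryo. Their deviations from group means correlated at -0.025 to 0.225 over 19153 units. Alternatives were a pseudocount of 0.1, no filter, a filter at 5 FPKM, quantile normalization, 1 fit of all 15 samples, other sets of untreated controls, embryo as a replicate block and leaving out each sample.

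The members and lists were chosen with earlier results of these data known. Named genes were the 8 members, Ciz1, relatives called at the threshold, the closest expressed relative of each family, and the 3 units of other genes most like each member by Pearson r over 15 samples. Gene coordinates are GENCODE vM21, in GRCm38. Populations within a group came from separate embryos, except that S13, S14 and S15 could not be assigned to theirs. One relative is not reported here.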

Additional observations from a re-analysis of the deposited data

Results flagged for a closer look

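Nrn1 and Renbp went in opposite directions on adaptation in the 2 genotypes, in all 3 embryos of each. The smallest log2 changes were 0.217 for Renbp in CIZ1 null E13.15 and -0.294 for Nrn1 in CIZ1 null E13.17. The mean log2 change in CIZ1 null embryos minus that in WT embryos was -3.08 for Nrn1 and 2.61 for Renbp. The difference was not tested, since both genes were chosen from the adapted samples that enter it. Groups held 2 or 3 samples, too few to look for single outlying samples within a group.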

How the results depend on the processing

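No member was called for CIZ1 loss in primary cells or for induction under any alternative. Uncalled differences changed sign. For primary CIZ1 loss, that of Tfpi was 0.077 with only the 2 populations without the transgene, and with all 4 untreated CIZ1 null samples Tfpi was at 0.01, Adgrl3 at 0.247 and Itgbl1 at 0.394. Against all 4 untreated samples, induction gave 0.006 for Smpdl3a, 0.314 for Adgrl3, -0.115 for Prkar1b and 0.043 for Itgbl1. Leaving out 1 sample gave, for primary CIZ1 loss, -0.093 to 0.326 for Smpdl3a, -0.38 to 0.262 for Adgrl3, -0.343 to 0.16 for Tfpi and -0.483 to 0.343 for Itgbl1. For induction it gave -0.885 to 0.337 for Smpdl3a, -0.967 to 0.564 for Adgrl3, -0.223 to 0.501 for Prkar1b, -0.28 to 0.539 for Renbp, -1.201 to 0.075 for Gpm6b, -0.392 to 0.311 for Tfpi and -1.421 to 0.393 for Itgbl1.

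Calls among relatives on adaptation of WT cells were 2 in place of 7 without a filter and 2 with the replicate block, and 0 to 10 when 1 sample was left out. In CIZ1 null cells they were 1 in place of 2 with a pseudocount of 0.1 and without a filter, 4 in 1 fit of all samples, 0 with only the 2 populations without the transgene, 0 with the replicate block, and 0 to 5 when 1 sample was left out. A filter at 5 FPKM kept 5 members on adaptation of WT cells, all 5 outside the primary range, and left 1 of 6 outside it in CIZ1 null cells. With all 4 untreated samples that count was 1, and it was 2 to 4 when 1 sample was left out. For CIZ1 loss in adapted cells the count of members not overlapping was 5 to 8. Shares of all units not overlapping are not given for these settings, and leaving out a sample makes non-overlap easier for any unit. The causes were not tested. Over all units, calls on adaptation were 499 and 10 with the replicate block in place of 1902 and 975 in WT and CIZ1 null cells. Leaving out 1 sample gave 62 to 2972 such calls in WT cells and 25 to 2999 in CIZ1 null cells. In 1 fit of all samples, calls were 70 and 9 in place of 1 and 1 for CIZ1 loss in primary and adapted cells, 2422 in place of 975 for adaptation of CIZ1 null cells, and 90 in place of 2 for induction. With a pseudocount of 0.1, adaptation of WT cells was larger, at -3.52 for Adgrl3 and -3.59 for Itgbl1.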
